A study of Mus musculus with 14 samples.

Results

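FoxO genes encode a small family of forkhead transcription factors, and 4 of them (Foxo1, Foxo3, Foxo4 and Foxo6) were among the 7756 genes of the deposited hippocampal count table, found by their symbols. All 4 were also among the 7338 genes tested, those whose mean count reached 40 in each of the groups. Hippocampal RNA was sequenced from 14 wild-type male C57BL/6J mice, 8 weeks old at the start and kept for 28 days. The methods place the collection of hippocampi after behavioral tests, among them passive avoidance training with an electric shock. The 4 control mice breathed 21% oxygen. In the 5 mice of the intermittent hypoxia (IH) group, oxygen alternated between 10% and 21% in cycles of 2 min for 8 h per day, a model of sleep apnea. Sustained hypoxia (SH) meant constant 10% oxygen during 8 h per day, in 5 mice. According to the methods, the control mice belonged to a preliminary experiment, so exposure and experiment cannot be told apart in either comparison with control. The methods describe IH and SH under the same protocol, but with different gas delivery systems, which cannot be told apart from the exposure.

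FoxO factors bind a shared DNA motif and switch on genes of cell cycle arrest, stress resistance, autophagy and cell death. When insulin or growth factors activate PI3K and AKT, AKT phosphorylates FoxO proteins, which then bind 14-3-3 proteins and leave the nucleus. Foxo6 is the most neuronal member, stays mainly in the nucleus and is known in the hippocampus for a part in memory consolidation, together with MEF2 factors. Foxo1, Foxo3 and Foxo4 are found in many tissues. Because the main control of these proteins is on their location, a transcript count measures only one side of their activity.

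The 4 genes are alike where they bind DNA, and this likeness bears on how surely reads can be assigned to one of them. Foxo6 lies at chr4:120124276-120147792 (GRCm39, minus strand), Foxo1 at chr3:52175757-52260642 (plus strand), Foxo3 at chr10:42057837-42154007 (minus strand) and Foxo4 at chrX:100298073-100304479 (plus strand). The 60 coding bases of Foxo6 that were most alike the other 3 genes lie in exon 1, at chr4:120144054-120144113, within the stretch that encodes the forkhead DNA-binding domain. The matching coding bases are at chr3:52176766-52176825 in Foxo1 (exon 1), chr10:42150830-42150889 in Foxo3 (exon 2) and chrX:100298802-100298861 in Foxo4 (exon 1). They are shown on the coding strand, with capitals for bases that differ from Foxo6.
Foxo6: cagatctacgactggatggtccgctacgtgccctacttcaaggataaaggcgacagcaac
Foxo1: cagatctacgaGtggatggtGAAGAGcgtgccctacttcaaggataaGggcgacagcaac
Foxo3: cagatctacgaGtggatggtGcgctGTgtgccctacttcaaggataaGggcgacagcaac
Foxo4: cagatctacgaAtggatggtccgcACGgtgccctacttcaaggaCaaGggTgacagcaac
In this window Foxo1 differed from Foxo6 at 8 bases, Foxo3 at 5 and Foxo4 at 7, so that 86.7%, 91.7% and 88.3% of the bases were identical. Even so, the longest run of identical bases between Foxo6 and any other FoxO transcript was 21 bases, and the longest between any pair was 38 bases, in Foxo1 and Foxo3. In windows of 75 bases, Foxo3, Foxo4 and Foxo6 transcripts shared none with another annotated gene. Foxo3 overlaps long noncoding genes without sharing such a window. Foxo1 shared 527 of its 8591 windows with the antisense gene Gm20402. The kit marked the strand, but whether the counting used it is not given in the sources used here, so that part of the Foxo1 count is uncertain. The antisense gene Foxo6os lies 745 bases from Foxo6 and does not overlap it.

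The libraries held 7203660 to 11777100 counts in total. The summed level of 5 dentate gyrus markers, which mark the granule cells of one hippocampal subregion, was 4366 to 5754 in control, 5852 to 10421 in IH and 5672 to 10884 in SH. IH replicate 5 and SH replicates 4 and 5 stood apart, with 10421, 10218 and 10884 in this order, against at most 7280.4 in every other library. The same 3 libraries had the highest summed count of 5 oligodendrocyte markers, 182319, 133026 and 138255, against at most 115439 elsewhere. The median log2 difference of these markers from control was 0.36 for IH and 0.38 for SH, with all 5 above 0 and 0 called in both. The summed level of 10 thalamus and striatum markers was 4706 in IH replicate 5, 4433 in SH replicate 5 and 3306 in SH replicate 4. It was at most 3954 in the other libraries, and 0 of the 9 tested were called in either comparison with control. The dentate gyrus markers were Prox1, C1ql2, Dsp, Lct and Tdo2, and of these Prox1 alone passed the test, in IH (log2 fold change 0.66, adjusted p = 0.0169, edgeR) and in SH (0.81, adjusted p = 0.00387). The 6 CA1 markers, with a summed level of 12216 to 17448 over all libraries, and the 5 CA3 markers measured, at 3543 to 5588, held no gene that passed in any comparison. Choroid plexus markers, from a tissue that borders the hippocampus, ranged from 997 to 87414 within the control group alone, with 0 of 10 called. Of the erythrocyte markers, 4 of 4 tested fell in IH, where 10.9% of all genes were called. In SH, where 20.6% of all genes were called, 2 of 3 microglia markers fell and 1 of 5 interneuron markers, Gad1, rose (0.30, adjusted p = 0.00728). The other interneuron markers had values in both directions, among them Gad2 (0.31, adjusted p = 0.0615) and Sst (-0.38, adjusted p = 0.200).

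Foxo6 was lowest in the IH group, although its difference from control just missed the adjusted threshold. Its normalized count was 923, 879, 589.5 and 849 in control replicates 1 to 4. In IH it was 613, 544, 624, 591 and 370.4, and in SH it was 719.8, 713, 762, 532 and 456. Control replicate 3 lay far below the other control libraries and within the IH range, while IH replicate 5 and SH replicates 4 and 5, the libraries richest in dentate gyrus markers, were the lowest of all. The control mean was 810.0 ± 150.1 (SD, n = 4). That of IH was 548 ± 104 and that of SH 636.5 ± 134 (SD, n = 5 for both). All 5 IH libraries and all 5 SH libraries lay below the control mean, but both groups overlapped with control. These normalized counts have been scaled by TMM, edgeR's correction for library size and composition, and in whole tissue fewer cells that express a gene and less RNA per cell cannot be told apart. The study also measured Foxo6 by RT-qPCR, with control samples extracted in its own experiment. There it reported no significant effect of exposure on Foxo6.

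On the log2 scale, Foxo6 in IH lay below control by a difference of -0.56 (95% interval -0.94 to -0.19, standard error 0.18, adjusted p = 0.0526 after Benjamini-Hochberg correction of the quasi-likelihood test of edgeR). For SH against control the difference was -0.35 (95% interval -0.72 to 0.030, adjusted p = 0.173). Between IH and SH it was -0.22 (95% interval -0.58 to 0.14, adjusted p = 0.612), and -0.10 without IH replicate 5. The fitted fold in IH was 0.677. The IH difference passed the adjusted threshold under 7 of 27 alternatives, among them DESeq2 (adjusted p = 0.0163), leaving out control replicate 3 (log2 fold change -0.69, adjusted p = 0.0261), and leaving out the 3 libraries richest in dentate gyrus markers (-0.45, adjusted p = 0.0380). It did not pass with GC content and length trends removed (-0.37, adjusted p = 0.214) or with the level of dentate gyrus markers as a covariate (-0.27, adjusted p = 0.129). The SH difference passed under none of the 27, with an adjusted p between 0.0732 and 0.823, and it was -0.080 with the trends removed and -0.065 with the covariate.

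Foxo3, the FoxO gene with the highest count, was higher in both hypoxic groups, by about the same amount. Its normalized count was 1174, 1151, 1187 and 1333 in control. It was 1328, 1530.03, 1294, 1519 and 1580.3 in IH and 1557, 1318, 1269, 1572 and 1497 in SH. All 10 hypoxic libraries were above the control mean of 1211 ± 82.5 (SD, n = 4), and control replicate 4 was the control library that reached into the range of both hypoxic groups. Foxo3 rose in SH compared to control (log2 fold change 0.25, 95% interval 0.072 to 0.43, standard error 0.085, adjusted p = 0.0462, edgeR). The value in IH vs. control was 0.26 (standard error 0.085, 95% interval 0.080 to 0.44, adjusted p = 0.0585). IH and SH differed by 0.0079 (95% interval -0.16 to 0.18, adjusted p = 0.989). The SH call is close to the threshold and was lost under 13 of 27 alternatives, with an adjusted p of 0.0182 to 0.188. It was lost without control replicate 1 (0.112), 2 (0.121) or 3 (0.0893), IH replicate 2 (0.0548) or SH replicate 1 (0.0809), 4 (0.102) or 5 (0.0868), and the IH call was gained without IH replicate 3 (0.0338).

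Foxo4, the X-linked member and the one with the lowest count, showed a spread as large as its differences. Its normalized count was 378, 407, 579 and 477 in control, 478, 420.3, 503, 559 and 614 in IH and 570.4, 491, 507, 561 and 613 in SH. Control replicate 3, the control library lowest in Foxo6, was the control library highest in Foxo4. Compared to control, the log2 difference was 0.16 for IH (95% interval -0.11 to 0.44, adjusted p = 0.409) and 0.25 for SH (-0.024 to 0.53, adjusted p = 0.176). Between IH and SH it was -0.091 (-0.35 to 0.17, adjusted p = 0.815, edgeR). All 5 SH libraries were above the control mean of 459.9 ± 89.4 (SD, n = 4), and without control replicate 3 the SH difference passed (0.39, adjusted p = 0.0455).

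Foxo1, best known as the insulin-controlled factor of the liver, had nearly equal means in the 3 groups. Its normalized count was 1228, 986, 944 and 972 in control, 1229.9, 1143, 1094, 1068 and 788 in IH and 929, 1271, 1181, 1028 and 942 in SH. Control replicate 1 stood above the other control libraries, and IH replicate 5 was the lowest library of all. Compared to control, the log2 difference was 0.043 for IH (95% interval -0.23 to 0.31, adjusted p = 0.839) and 0.051 for SH (-0.22 to 0.32, adjusted p = 0.806). Between IH and SH it was -0.0081 (-0.26 to 0.25, adjusted p = 0.991, edgeR). These intervals leave room for differences of about the size seen in Foxo3.

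**Figure D1:**
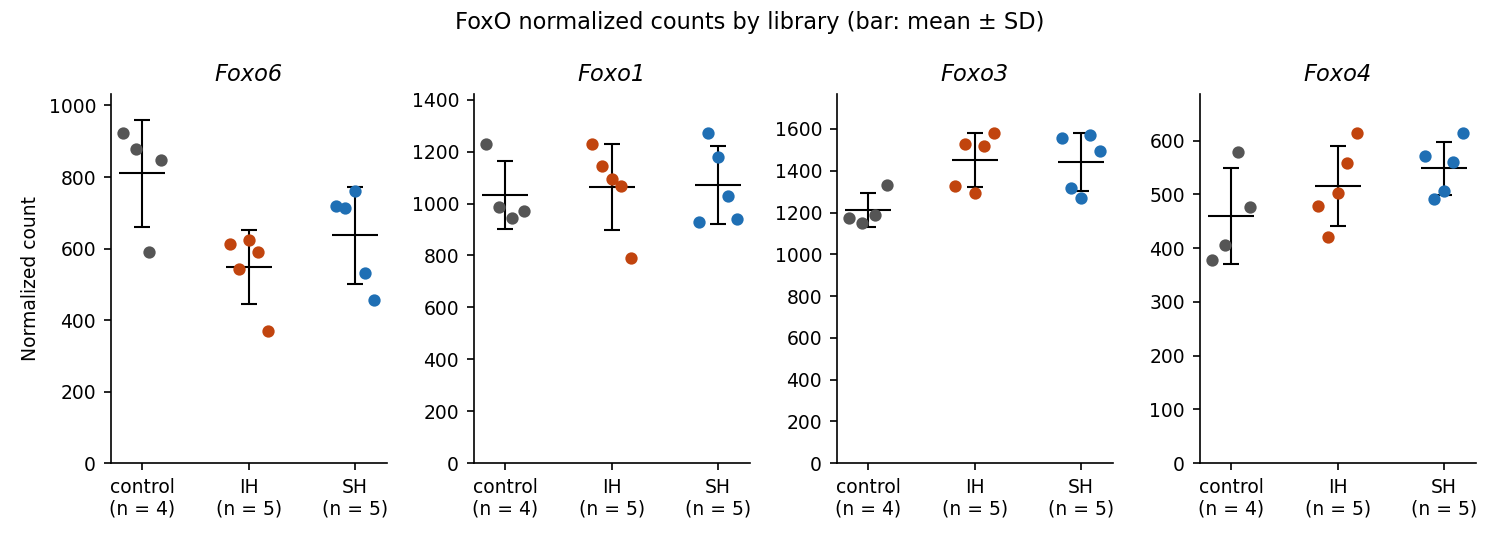
Normalized counts of the 4 FoxO genes in each library (points) of the control, IH and SH groups, with the mean and SD of each group as bars, on axes that start at 0. Foxo6 has a mean of 810.0 in control and 548 in IH with control replicate 3 inside the IH range, Foxo3 lies higher in both hypoxic groups, and Foxo1 and Foxo4 overlap throughout.

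Thus edgeR called 0 of the 4 FoxO genes in IH vs. control, where it called 10.9% of all genes tested. DESeq2 called 2 of them, Foxo3 and Foxo6, and 15.9% of the genes to which it gave an adjusted p. Both also had an unadjusted p under 0.05 in edgeR, as did 29.8% of all genes. In SH vs. control edgeR called 1 of the 4 (Foxo3, which rose), against 20.6% of all genes, and the same 1 had an unadjusted p under 0.05, against 36% of all genes. DESeq2 also called 1 of the 4, Foxo3, and 24.7% of its genes. In IH vs. SH edgeR called 0 of 4, against 2.37% of all genes, with 0 at an unadjusted p under 0.05 (15.8% of all genes) and 0 by DESeq2 (4.95% of its genes). In no comparison were the groups free of overlap for a FoxO gene, which they were for 15.1% of all genes when IH was set against control, 19.4% for SH against control and 4.46% for IH against SH. The methods describe a selection of the table's genes on their signal relative to control. These shares, and the adjusted p-values of all comparisons, hold within that selection. Both hypoxic groups were set against the same 4 control libraries.

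Whether Foxo6 behaved differently from the other FoxO genes was asked with the ratio of Foxo6 to each of them within a library, which does not depend on scaling. The log2 ratio of Foxo6 to Foxo1 was -0.41, -0.17, -0.68 and -0.20 in control, and -1.004, -1.07, -0.81, -0.85 and -1.09 in IH. In SH it was -0.37, -0.83, -0.63, -0.95 and -1.05. All IH libraries were below all control libraries, and the SH libraries spanned both ranges. The mean in IH was lower than in control by -0.60 on the log2 scale, a ratio of 0.659 of that in control (2-sided exact permutation test, p = 0.0159, the smallest p that 5 against 4 libraries can give, and 0.0714 adjusted over 9 ratio comparisons).

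The log2 ratio of Foxo6 to Foxo3 was -0.35, -0.39, -1.01 and -0.65 in control, and -1.11, -1.49, -1.05, -1.36 and -2.09 in IH. In SH it was -1.11, -0.89, -0.74, -1.56 and -1.72. Again no IH library reached the control range, but control replicate 3 and IH replicate 3 were only just apart. The difference in means was -0.82 in IH vs. control (exact permutation test, p = 0.0159, adjusted p = 0.0714) and -0.60 in SH vs. control (p = 0.0635, adjusted p = 0.143). Foxo3 was higher and Foxo6 lower in these groups, and both enter this ratio.

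The ratio of Foxo6 to Foxo4 overlapped between groups, since control replicate 3 had a log2 ratio of 0.027 where the other control libraries had 0.83 to 1.29. The mean log2 ratio in control was 0.82 ± 0.56 (SD, n = 4), compared to 0.079 ± 0.47 in the IH group and 0.19 ± 0.43 in the SH group (SD, n = 5 for both). The differences from control were -0.74 in IH (exact permutation test, p = 0.0794) and -0.62 in SH (p = 0.111). Without control replicate 3 these were -0.999 and -0.89 (exact permutation test, p = 0.0357 for each). For Foxo6 to Foxo1 the SH difference was -0.40 (exact permutation test, p = 0.0794). None of the 9 ratio comparisons had an adjusted p under 0.05, the smallest that the design allowed for a single comparison with control being 0.0159.

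Between IH and SH, the differences in the ratio of Foxo6 to Foxo1, Foxo3 and Foxo4 were -0.20, -0.22 and -0.11 (exact permutation test, p = 0.183, 0.444 and 0.667). The smallest p possible for 5 against 5 libraries was 0.00794. With the trends of each library on GC content and length removed, the IH and SH differences from control in the ratio to Foxo1 were -0.37 (exact permutation test, p = 0.0159) and -0.060 (p = 0.730). Those in the ratio to Foxo3 were -0.69 (exact permutation test, p = 0.0476) and -0.41 (p = 0.159), and those in the ratio to Foxo4 were -0.64 (p = 0.0952) and -0.49 (p = 0.159). The ratio to Foxo1 then differed between IH and SH by -0.31 (exact permutation test, p = 0.0317), that to Foxo3 by -0.28 (p = 0.278) and that to Foxo4 by -0.15 (p = 0.627). These values are not adjusted over the comparisons.

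**Figure D2:**
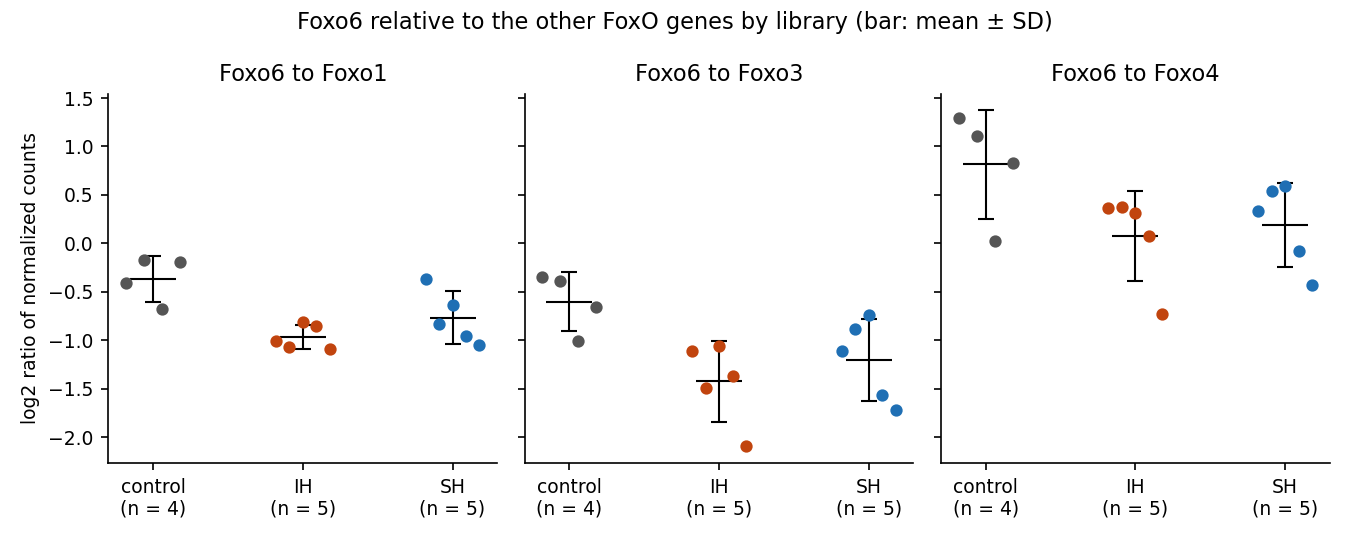
The log2 ratio of the normalized count of Foxo6 to that of Foxo1, Foxo3 and Foxo4 in each library (points), by group, with the mean and SD as bars. In the panels for Foxo1 and Foxo3 the 5 IH libraries lie below all 4 control libraries, and in the panel for Foxo4 control replicate 3 (0.027) lies among them.

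Per length of transcript, the group means of the 4 FoxO genes lay closer together in control than in the hypoxic groups. This difference was not tested, and single control libraries ran from 99.99 to 156.5 per kilobase for Foxo6 and 106.5 to 163.2 for Foxo4. Normalized counts per kilobase of merged exons were 137 ± 25.5 for Foxo6, 131 ± 8.94 for Foxo3, 129.7 ± 25.2 for Foxo4 and 111 ± 14.2 for Foxo1 in control (SD, n = 4), and no neighbors in this order differed by more than their spread. In IH they were 157 ± 14.1 for Foxo3, 145 ± 21.0 for Foxo4, 115 ± 17.9 for Foxo1 and 93.0 ± 17.7 for Foxo6 (SD, n = 5), and in SH 156 ± 15.2, 155 ± 14.0, 115 ± 16.2 and 108 ± 22.8 in the same order. Foxo6 was the lowest FoxO gene per length in 5 of 5 IH libraries, in 3 of 5 SH libraries and in 1 of 4 control libraries. In 2 of 4 control libraries it was the highest, which it was in no hypoxic library. Its share of the summed FoxO level per length was 26.9% ± 4.62 in the control libraries (SD, n = 4), compared to 18.2% ± 3.21 for IH and 20.1% ± 3.88 for SH (SD, n = 5 for both). With the longest transcript as the length, Foxo3 was the highest in control, at 155 per kilobase, and Foxo6 remained at 137.

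Within groups, Foxo6 went against the dentate gyrus markers. Over the 14 libraries, as deviations of log2 values from the group means, Foxo6 and the level of these markers had r = -0.885 (permutation within groups, p = 6.0e-05, adjusted p = 0.00036 over 6 relations) and rho = -0.895 (adjusted p = 0.00186). Without the 2 libraries farthest from the median of the markers, SH replicates 4 and 5, r was -0.856. In the same way, Foxo6 had r = 0.713 with Foxo1 (adjusted p = 0.0344, rho = 0.618, adjusted p = 0.0571), which was 0.558 without 2 libraries, and r = -0.719 with Foxo4 (adjusted p = 0.0201, rho = -0.582, adjusted p = 0.0571), which was -0.730 without 2 libraries. With Foxo3, r was -0.501 (adjusted p = 0.137, rho = -0.662, adjusted p = 0.0571), with CA1 markers -0.385 (adjusted p = 0.260, rho = -0.393) and with choroid plexus markers 0.194 (adjusted p = 0.540, rho = -0.068, permutation tests). These 14 libraries include the 3 with the most dentate gyrus marker RNA, and the relations of the FoxO genes with one another share those libraries.

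The summed count of the dentate gyrus markers separated IH from control without overlap, whereas their mean log2 level, used for the relations above and as a covariate, overlapped, at 5.92 to 6.59 in control and 6.40 to 7.24 in IH. With this level as a covariate, the log2 fold change of Foxo6 was -0.27 in IH vs. control (adjusted p = 0.129) and -0.065 in SH vs. control (adjusted p = 0.718, edgeR). That of Foxo3 was 0.17 in IH (adjusted p = 0.178) and 0.17 in SH (adjusted p = 0.158). Foxo1 moved away from 0, to 0.21 in IH (adjusted p = 0.221) and 0.22 in SH (adjusted p = 0.162), and Foxo4 toward 0, to 0.013 in IH (adjusted p = 0.957) and 0.11 in SH (adjusted p = 0.534). With the level of CA1 markers as the covariate, Foxo6 had -0.67 in IH (adjusted p = 0.0352), and Foxo3 0.33 in IH (adjusted p = 0.0235) and 0.29 in SH (adjusted p = 0.0182). These fits were chosen after the data were examined, as was leaving out the 3 libraries richest in dentate gyrus markers, where Foxo6 had -0.45 in IH (adjusted p = 0.0380) and -0.15 in SH (adjusted p = 0.469). The part of oligodendrocyte RNA, highest in the same 3 libraries, was not tested.

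**Figure D3:**
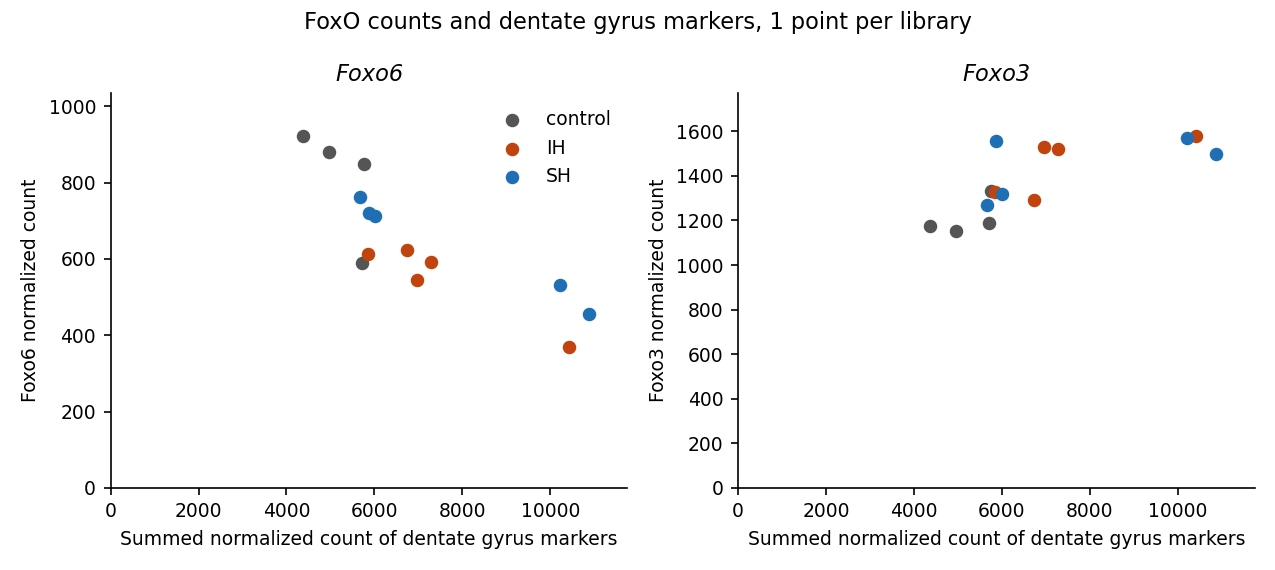
Normalized counts of Foxo6 (left) and Foxo3 (right) against the summed normalized count of 5 dentate gyrus markers, with 1 point per library colored by group and both axes from 0. Foxo6 is lowest, between 370.4 and 532, in the 3 libraries with marker sums from 10218 to 10884, and the control libraries lie at the left with sums up to 5754.

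Foxo6 is rich in G and C, which matters because the libraries differed in how counts depended on GC content. In its longest transcript, 62.2% of bases were G or C, more than in the longest transcripts of 98.2% of 7307 genes, whose median was 49.9%. Foxo4 had 55.3%, Foxo3 54.9% and Foxo1 48.5%. In the coding sequence of Foxo6 the share was 72.3%, against 58.2% to 62.2% in the other 3. The fitted trend of all genes on GC content and length, read at the position of Foxo6, was 0.16 on the log2 scale in control, -0.028 in IH and -0.10 in SH. After these trends were removed, the log2 fold change of Foxo6 was -0.37 in IH (95% interval -0.73 to -0.0016, adjusted p = 0.214) and -0.080 in SH (-0.44 to 0.28, adjusted p = 0.823). Foxo3 then passed in both groups, with 0.31 in IH (adjusted p = 0.0275) and 0.31 in SH (adjusted p = 0.0218, edgeR). The part of GC-dependent counting in the Foxo6 difference cannot be told apart from the group, since the trend itself differed between control and hypoxic libraries.

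**Figure D4:**
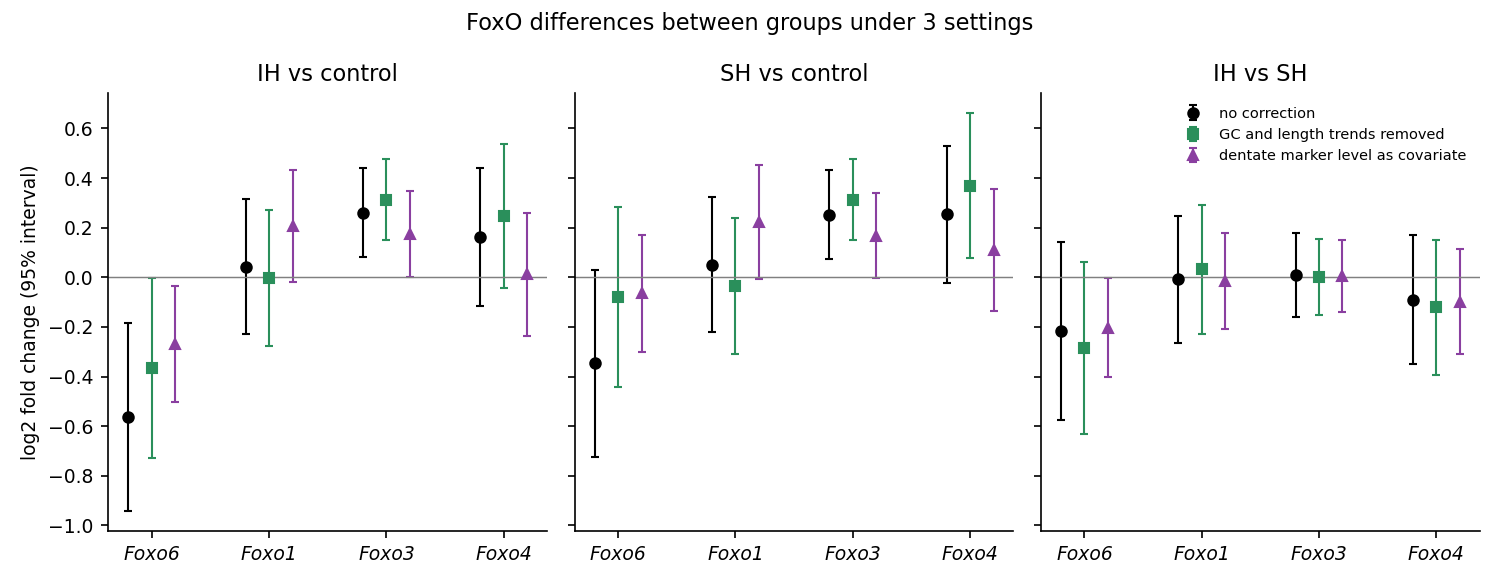
Log2 fold changes of the 4 FoxO genes with 95% intervals for IH and SH against control and for IH against SH, without correction (circles), with GC content and length trends removed (squares) and with the level of dentate gyrus markers as a covariate (triangles). The Foxo6 value in IH moves from -0.56 to -0.37 and -0.27, that in SH from -0.35 to -0.080 and -0.065, and Foxo3 stays above 0 in both comparisons with control.

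The genes whose counts followed Foxo6 most closely were listed by Pearson correlation of log2 normalized counts over the 14 libraries, as a description. They were Nr2f1 (r = 0.929), an orphan nuclear receptor of the developing cortex and hippocampus, Myo16 (0.929), Ccn3 (0.923), Nagk (0.923), Ephb6 (0.923), Tfr2 (0.922), Crym (0.922), a thyroid hormone binding protein, and Nptxr (0.913), the neuronal pentraxin receptor. The genes that ran most against it were Dock10 (-0.939), Erbin (-0.929), Pitpnc1 (-0.926) and Hectd2 (-0.926). Of 7337 genes, 106 had r above 0.8 and 135 had r below -0.8 with Foxo6. Prox1, the granule cell factor of the dentate gyrus, was at place 7254 from the most alike, with r = -0.830, Foxo1 at place 1094, Foxo3 at 6908 and Foxo4 at 6956. After group means were taken out, r remained 0.911 for Nr2f1 and -0.940 for Dock10. All these genes share the same libraries. None of the 12 passed the test in IH vs. control, where 10.9% of all genes were called, or in IH vs. SH (2.37%). In SH vs. control, where 20.6% of all genes were called, 1 of them passed. This was Erbin, which encodes a scaffold protein of the ERBB2 receptor and rose (0.47, adjusted p = 0.0497, edgeR).

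Upstream of FoxO, 9 of the 23 listed genes of insulin and PI3K-AKT input were in the table and tested, and few of them passed. The table's genes were selected on their signal relative to control. Listed genes absent from it, here and in the lists below, may thus be expressed without having met that selection. Akt1, the kinase that phosphorylates FoxO proteins, fell in IH (log2 fold change -0.22, adjusted p = 0.0134, edgeR). Its normalized count was 3540.0 ± 34.4 in control (SD, n = 4) and 3043 ± 174 in the IH group (SD, n = 5), and these groups did not overlap. With GC content and length trends removed the value was -0.073 (adjusted p = 0.513). In SH its value was -0.14 (adjusted p = 0.0645). Of the regulatory subunits of PI3K in SH, Pik3r1 rose by 0.30 (adjusted p = 0.00410), Pik3r2 fell (-0.21, adjusted p = 0.0320) and Pik3r3 had 0.12 (adjusted p = 0.162). With the trends removed Pik3r1 had 0.16 (adjusted p = 0.0514) and Pik3r2 0.0096 (adjusted p = 0.938), so that neither passed and the sign of Pik3r2 turned. Thus 0 genes rose and 1 fell in IH, and 1 rose and 1 fell in SH, against 6.08% higher and 4.85% lower of all genes in IH and 10.2% and 10.5% in SH. The median log2 fold change of the list was 0.12 in IH and 0.16 in SH, against -0.015 and 0.0035 over all genes. In IH vs. SH 0 passed (2.37% of all genes), with 1 at an unadjusted p under 0.05 (15.8%) and 0 by DESeq2 (4.95%).

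Among 34 other listed regulators of FoxO, 13 were tested, and 2 rose in IH and 3 rose and 1 fell in SH. Of all genes, 10.9% were called in IH and 20.6% in SH. Prkaa1, the catalytic alpha subunit of AMPK, which phosphorylates FoxO under low energy, was 819.9, 838, 796 and 717 in control, 908, 892, 1088, 967 and 1060.07 in IH, and 896, 1066, 990.3, 1053 and 924 in SH. Every hypoxic library was above every control library, and the log2 fold change was 0.31 in IH (adjusted p = 0.0250) and 0.31 in SH (adjusted p = 0.0152, edgeR). Xpo1, the export receptor that carries FoxO out of the nucleus, rose in IH (0.33, adjusted p = 0.00746) and had 0.18 in SH (adjusted p = 0.0763). Nlk, a kinase that acts on FoxO, rose in SH (0.27, adjusted p = 0.00558), as did Usp7, a deubiquitinase of FoxO4 (0.18, adjusted p = 0.0403), and Mapk3, encoding ERK1, fell (-0.29, adjusted p = 0.0116). The median over the list was 0.045 in IH and 0.0996 in SH, against -0.015 and 0.0035 over all genes. The call of Usp7 held under 10 of 27 alternatives. With GC content and length trends removed, 0 of the 13 passed in either comparison with control. In IH vs. SH 0 passed (2.37% of all genes), with 1 at an unadjusted p under 0.05 (15.8%) and 0 by DESeq2 (4.95%).

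Downstream, 28 of 48 listed FoxO target genes were in the table and 27 were tested. In IH, 3 rose, 2 fell and 22 did not pass. In SH, 6 rose, 5 fell and 16 did not pass. The median log2 fold change was 0.13 in IH and 0.10 in SH, with values above 0 for 16 of 27 genes in each. Against 10.9% and 20.6% of all genes, 5 and 11 of 27 targets passed, in both directions, on a list drawn up with earlier results of these data known. With 1 library left out, 2 to 7 targets passed in IH, with 3 without replicate 1 or 2 of either control or IH and 2 without control replicate 4. In SH 6 to 12 passed, with 6 without control replicate 1 or 2 and 7 without SH replicate 4 or 5. DESeq2 called 8 in IH, against 15.9% of the genes to which it gave an adjusted p. The study's processing with limma called 7 in SH, and the fit without the 3 libraries richest in dentate gyrus markers 5 in SH. The share of all genes is not given here for limma, and calls over all genes with libraries left out follow below.

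Rbl2, a retinoblastoma-like pocket protein that keeps cells out of the cycle, gave the clearest difference of the list. It had 1129, 1137, 1167 and 1114 normalized counts in control, 1302, 1419.95, 1466, 1491 and 1428 in IH, and 1382, 1363, 1420.4, 1373 and 1399 in SH. All 10 hypoxic libraries were above all 4 control libraries. Rbl2 rose by 0.32 in IH (adjusted p = 0.00246) and by 0.29 in SH (adjusted p = 0.00283, edgeR). The IH call of Rbl2 held under all 27 alternatives, and the SH call under 26, with 0.15 (adjusted p = 0.112) when GC content and length trends were removed.

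Tsc22d3, which encodes the glucocorticoid-induced leucine zipper protein and is also raised by FoxO3, was the 1 of 27 targets called in IH vs. SH, against 2.37% of all genes. It was 907, 1013, 1058 and 1041 in control, 1447, 1291, 1852, 1454 and 1396 in IH, and 1052, 1387, 937, 1063 and 1050.5 in SH. The IH libraries were all above the control libraries, and SH replicate 2 reached into the IH range. Tsc22d3 rose in IH compared to control (0.57, adjusted p = 0.00733) and compared to SH (0.44, adjusted p = 0.0417), with 0.13 in SH vs. control (adjusted p = 0.446, edgeR). The IH vs. control call held under all 27 alternatives, and that of IH vs. SH under 10 of 27, with an adjusted p of 0.00469 to 0.173. In IH vs. SH 4 of 27 targets had an unadjusted p under 0.05, against 15.8% of all genes. Beside Tsc22d3 these were Ccnd1 (0.20, adjusted p = 0.106), Tnfsf10 (-0.71, adjusted p = 0.144) and Cdkn1a (0.55, adjusted p = 0.173), named after their values were seen.

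In IH, Atg12, an autophagy conjugation gene, rose (0.25, adjusted p = 0.0416), a call that held under 14 of 27 alternatives. Pink1, a mitochondrial quality control kinase, fell in IH (-0.25, adjusted p = 0.0286) and in SH (-0.31, adjusted p = 0.00696), calls that held under 18 and 26 of 27. With GC content and length trends removed Pink1 had -0.17 (adjusted p = 0.119) in IH and -0.19 (adjusted p = 0.0701) in SH. Gadd45b, a stress and activity induced gene, fell in IH (-0.59, adjusted p = 0.0141) and in SH (-0.45, adjusted p = 0.0295), although control replicate 1, at 221, lay within the hypoxic range of 188 to 242. These calls held under 25 and 19 of 27, and without the trends the SH value of Gadd45b was -0.27 (adjusted p = 0.295).

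In SH, all 11 targets that passed are named, of which Ccng2, Bcl6, Tnfsf10 and Txnip were added after their values were seen. The genes that rose were Sesn1 (0.39, adjusted p = 0.0284), a sestrin that restrains mTORC1, Ccng2 (0.35, adjusted p = 0.0374), a cyclin of cell cycle arrest, Rbl2, Bcl6 (0.41, adjusted p = 0.0394), a transcriptional repressor, Tnfsf10 (0.84, adjusted p = 0.0305), the death ligand TRAIL, and Txnip (0.49, adjusted p = 0.0428), an inhibitor of thioredoxin. Sesn1 was 1042, 1159.7, 1259, 1507 and 1508 in SH against 848, 1044, 1069 and 1002 in control, and it was highest in SH replicates 4 and 5, the libraries richest in dentate gyrus markers. With the level of those markers as a covariate, Sesn1 had 0.20 (adjusted p = 0.0744), Bcl6 0.21 (adjusted p = 0.132), Ccng2 0.22 (adjusted p = 0.126) and Txnip 0.33 (adjusted p = 0.147), so that these 4 calls were lost. The genes that fell were Klf2 (-0.81, adjusted p = 0.00684) and Klf4 (-0.79, adjusted p = 0.0185), zinc finger factors of the endothelium, Bbc3 (-0.57, adjusted p = 0.00813), encoding the proapoptotic protein PUMA, Gadd45b and Pink1. Txnip is also known to respond to glucose, and Klf2 and Klf4 to blood flow. By RT-qPCR the study reported no significant effect of exposure on Klf2. Of the 6 endothelial markers 1, Flt1, rose in SH (0.22, adjusted p = 0.0245), where 20.6% of all genes were called. The log2 fold changes of the 6 ran from -0.27 to 0.25, with 5 above 0 and 1 below. Their summed level was 3648 to 4562 in control and 4203 to 4843 in SH. The part of endothelial RNA in these values was not tested.

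Of the 27 alternatives, removing the GC content and length trends left the fewest listed genes called in both comparisons with control, and calls over all genes dropped as well, from 10.9% to 6.19% in IH and from 20.6% to 7.39% in SH. With the trends removed, 3 target genes passed in IH. Of the IH calls named above, Rbl2 (0.23, adjusted p = 0.0275) and Tsc22d3 (0.62, adjusted p = 0.0123) were among these, and Atg12, Pink1 and Gadd45b were not. In SH 1 target, Sesn1 (0.39, adjusted p = 0.0492), passed, and of the insulin and PI3K-AKT genes and other regulators 0 passed in either comparison with control. Among these regulators, Prkaa1 then had 0.17 in IH (adjusted p = 0.201) and 0.16 in SH (adjusted p = 0.203), and Xpo1 0.19 in IH (adjusted p = 0.0510). In SH, Nlk then had 0.17 (adjusted p = 0.0739), Mapk3 -0.11 (adjusted p = 0.331), Bbc3 -0.27 (adjusted p = 0.199) and Klf2 -0.50 (adjusted p = 0.0949).

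To see which of the target genes carry the FoxO motif near their start, the letters GTAAACA were searched on both strands, that is, also as TGTTTAC, in RefSeq promoters (GRCm38.p6) from 250 bases before to 50 bases after the gene start. Of the 27 target genes tested, 25 had a promoter sequence and 4 of them (16%) held the motif. Of all 27025 genes with a promoter the share was 4.05%, and of the 5725 such genes tested here it was 3.37%. The motif, in capitals, is shown for the 4 genes with up to 30 bases on each side, since their counts can be set beside it. The windows are chr10:41810566-41810623 for Sesn1, chr3:96557806-96557872 for Txnip, chr7:16310064-16310130 for Bbc3 and chr2:128125788-128125847 for Bcl2l11, all on the plus strand.
Sesn1: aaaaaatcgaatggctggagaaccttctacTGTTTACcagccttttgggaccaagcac
Txnip: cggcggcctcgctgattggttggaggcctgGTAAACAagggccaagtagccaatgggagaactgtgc
Bbc3: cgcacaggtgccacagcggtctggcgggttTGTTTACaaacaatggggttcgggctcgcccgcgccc
Bcl2l11: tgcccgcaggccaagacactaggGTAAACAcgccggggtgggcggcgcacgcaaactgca
The motif began 22 bases after the start of Sesn1, and 121 bases before the start of Txnip, 167 before that of Bbc3 and 227 before that of Bcl2l11, which encodes the proapoptotic protein BIM. In SH, Sesn1 and Txnip rose and Bbc3 fell, while Bcl2l11 had a log2 fold change of 0.19 (adjusted p = 0.548). The genes with the motif thus had values in both directions.

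Of the 4 MEF2 factors, the partners through which Foxo6 is known to act on synapses, Mef2c alone was in the table. The others may be expressed without having met the table's selection on signal relative to control, so Mef2c does not stand for the family. It was 2508, 2272, 2429 and 2343 in control, 2919, 3391, 2570.2, 3163 and 3117 in IH, and 2422, 3545, 3169, 3363 and 3301 in SH. SH replicate 1 stayed in the control range, and every other hypoxic library was above it. Mef2c rose in IH (0.34, adjusted p = 0.0358) and in SH (0.40, adjusted p = 0.0106, edgeR). The IH call held under 13 of 27 alternatives and the SH call under 25, and with GC content and length trends removed the values were 0.22 (adjusted p = 0.122) and 0.23 (adjusted p = 0.0934).

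Among 11 other forkhead genes of the table, 10 were tested. Foxf2, a factor of vessel-associated cells, fell in IH (-0.68, adjusted p = 0.0455), and in SH Foxn2 rose (0.48, adjusted p = 0.0258) and Foxp4 fell (-0.34, adjusted p = 0.0218). The calls were 1 of 10 in IH, against 10.9% of all genes, 2 of 10 in SH, against 20.6%, and 0 of 10 in IH vs. SH, against 2.37%, where 0 had an unadjusted p under 0.05 in edgeR and 0 passed in DESeq2. That of Foxf2 held under 10 of 27 alternatives, that of Foxn2 under 19 and that of Foxp4 under 21. With GC content and length trends removed Foxp4 had -0.029 (adjusted p = 0.867), and with the dentate gyrus covariate Foxn2 had 0.27 (adjusted p = 0.0852). Without the trends Foxn2 stood at 0.31 (adjusted p = 0.153).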

How the data were processed

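The authors trimmed reads with fastp 0.23.4, aligned them to GRCm39 with HISAT2 2.2.1 and quantified genes with StringTie 2.2.1. The table they deposited gives, for each gene and library, an estimated count without normalization between libraries. For 10 genes these held fractions, which were rounded. According to the methods, these are protein-coding genes above a low count limit, selected further on their signal relative to control. No sample column was left out.

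The 3 groups were fitted together with edgeR 4.0.16 in R 4.3.3 (quasi-likelihood test, TMM scaling) over the 7338 genes whose mean count reached 40 in each group, with Benjamini-Hochberg adjustment. The script was tested on simulated data. Standard errors were derived from the F statistic of each gene. Ratios were compared by exact permutation tests (scipy 1.17.1), correlations by 100000 permutations within groups. Alternatives used DESeq2 1.42.0, limma 3.58.1, other scalings and filters, a replicate block, removal of GC content and length trends by loess, marker covariates and leaving out libraries. Symbols were matched to GENCODE for 7707 genes directly and 16 through synonyms.

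Named genes are the FoxO genes, in each comparison the 6 members of each list with the smallest adjusted p under 0.05 (or the 2 with the smallest p where none passed), the 8 genes most like Foxo6, the 4 most opposed and the markers of lists whose level is given. Foxq1 was chosen by this rule but is not described, and Pik3r3 was named although the rule did not choose it. Members, lists and tests were chosen with earlier results of these data known. Each library was treated as 1 mouse, and p-values measure the spread between these libraries. No pair of libraries was a repeat of another (lowest chi-square per degree of freedom 8.96 over 26 pairs within groups). The results of 1 gene are not reported here, and it was left out of the lists but not of the fit.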

Additional observations from a re-analysis of the deposited data

Results flagged for a closer look

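In the 114 groups of 4 or 5 libraries of the 38 genes named by rule, 6 held a library far from the others by Dixon's test, and chance flags about 1 in 20 groups. Of the 12 groups of FoxO genes 1 was among them. Control replicate 1 had 1228 normalized counts of Foxo1, where the other control libraries had 944 to 986. IH replicate 5, rich in dentate gyrus markers and lowest in Foxo6, had 4146 of Dock10 against 2521 to 2762 in the other IH libraries, and 3586 of Erbin against 2203 to 2533. SH replicate 2 had 1387 of Tsc22d3 against 937 to 1063, and SH replicate 5 had 2083 of Mapk3 against 2340.15 to 2385. Control replicate 3 had 3776 of Usp7 against 3494 to 3529.9.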

How the results depend on the processing

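The FoxO values were recomputed under 27 alternatives, of which the marker covariates and the omission of the 3 libraries richest in dentate gyrus markers were chosen after seeing the data. In all of them Foxo6 stayed below control in both groups and Foxo3 stayed above, and which side of the threshold they took is given here as log2 fold changes with adjusted p. Foxo6 in IH passed with DESeq2 (-0.56, 0.0163), scaling by the 80th percentile (-0.58, 0.0457), the CA1 marker covariate (-0.67, 0.0352) and the 3 libraries left out (-0.45, 0.0380). Foxo3 in IH passed with DESeq2 (0.27, 0.0333), scaling by library total (0.28, 0.0362), trends removed (0.31, 0.0275) and the CA1 covariate (0.33, 0.0235). Foxo3 in SH did not pass with scaling by the 80th percentile (0.24, 0.0668), the filterByExpr filter (0.25, 0.0512), the study's processing with limma (0.23, 0.0944), the dentate gyrus covariate (0.17, 0.158), the choroid plexus covariate (0.23, 0.0762) or the 3 libraries left out (0.19, 0.188). Values near 0 changed sign. Foxo1 had -0.0017 in IH, -0.033 in SH and 0.032 in IH vs. SH with trends removed, -0.061 and -0.017 in IH and SH with the CA1 covariate, and 0.0091 in IH vs. SH with the 3 libraries left out. The dentate gyrus covariate moved Foxo1 the other way, to 0.21 in IH and 0.22 in SH. Foxo3 in IH vs. SH had -0.00035 with trends removed, where Pik3r2 in SH had 0.0096 and the log2 ratio of Foxo6 to Foxo1 in IH vs. SH was -0.31 (exact permutation p = 0.0317). The Foxo3 level per kilobase in control was 155 with the longest transcript and 131 with merged exons. The causes of these shifts were not tested.

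Of all genes, 802 were called for IH against control, 1514 for SH against control and 174 between IH and SH. With trends removed, the first became 452 and the second 540. With the 3 libraries left out, which leaves fewer samples, the second became 884 and the last 32. The last was 64 in a fit of the 2 groups, 300.0 with DESeq2 and 282 with the dentate gyrus covariate. Of the 57 listed genes tested, 10, 20 and 1 were called. These became 3, 1 and 0 with trends removed, 9 in SH and 0 in IH vs. SH with the 3 libraries left out, and, in IH vs. SH, 0 in a fit of the 2 groups and 0 with limma.

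Leaving out 1 library at a time gave these ranges. Foxo6 in IH had -0.69 to -0.45 and passed when control replicate 3 (0.0261), replicate 3 of IH (0.0482) or replicate 5 of SH (0.0389) was left out. Between IH and SH it had -0.32 to -0.10, and its log2 ratio to Foxo3 -0.35 to -0.053, with the values nearest 0 without replicate 5 of IH. Foxo3 had 0.23 to 0.31 in IH, 0.22 to 0.30 in SH and -0.035 to 0.046 in IH vs. SH. Foxo4 had 0.079 (without control replicate 1) to 0.29 (without control replicate 3) in IH and 0.17 to 0.39 in SH, with the same 2 libraries at the ends, and -0.16 (without replicate 5 of IH) to -0.026 (without replicate 2 of IH) in IH vs. SH. The log2 ratio of Foxo6 to Foxo1 in IH vs. SH differed by -0.27 to -0.0998, the latter without replicate 1 of SH. Foxo1 had -0.014 to 0.14 in IH, -0.018 to 0.15 in SH and -0.066 to 0.083 in IH vs. SH. The log2 ratio of Foxo6 to Foxo3 in SH differed by -0.74 to -0.47, and that of Foxo6 to Foxo4 by -0.999 to -0.53 in IH, -0.89 to -0.47 in SH and -0.27 to 0.089 in IH vs. SH. Calls over all genes were 389 to 976 in IH, 908 to 1742 in SH and 88 to 179 in IH vs. SH. Without control replicate 1 they were 409 in IH and 908 in SH, without control replicate 2 389 and 984, and without control replicate 4 523 in IH. Between IH and SH they moved by over 1.5 times without replicates 1 (93), 2 (92), 3 (114) or 4 (92) of IH, or without replicates 2 (97), 3 (92), 4 (88) or 5 (110.0) of SH. Calls of listed genes were 5 to 13, 11 to 23 and 0 to 1, with 5 in IH without control replicate 1 or 4, 6 without control replicate 2 or IH replicate 2, and in SH 11 without control replicate 1 or 2 and 13 without SH replicate 4. The 1 call in IH vs. SH, Tsc22d3, held without IH replicate 2 or SH replicate 2 and was lost in the other 12 omissions.

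The replicate numbers were not taken as pairs in the main fit. Of 13 same-numbered pairs, 6 had a correlation of deviations above 0.1, with a range of -0.296 to 0.466. Differently numbered libraries were not compared in this way, so the check cannot decide whether the numbers mark pairs. With the number as a replicate block, Foxo6 had -0.45 (0.0520) in IH and -0.24 (0.231) in SH, Foxo3 0.24 (0.0643) and 0.23 (0.0490), and 0 listed genes were called in IH vs. SH.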

Other observations

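Among the other forkhead genes, Foxp1, a factor of forebrain neurons, was singled out after its values were seen. It had 779.9 normalized counts in IH replicate 5, against 1679 to 1960.1 in the other IH libraries, 1751 to 1884 in control and 1684.7 to 1993 in SH. Its correlation with Foxo6 over the 14 libraries was 0.653.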
